A study of Mus musculus with 15 samples.

Results

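Triglyceride synthesis and lipid droplet genes were followed through 1 day of liver translation. The set held 10 genes, Gpam, Agpat2, Lpin1, Lpin2, Dgat1, Dgat2, Plin2, Plin5, Cidec and Pnpla2, found by gene symbol, and their 15 RefSeq transcripts among 28167 transcripts of 20097 named genes. Livers came from wild-type male C57BL/6N mice, 8 to 10 weeks old, kept in a light-dark cycle for 2 weeks and then moved to constant darkness. From 24 h after that move, 2 mice were killed every 4 h at 7 circadian times (CT, in hours) from CT0 to CT24, and ribosome-protected mRNA fragments (footprints) were sequenced from a piece of frozen liver of each of the 14. No other genotype or treatment was part of these samples.

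The liver makes triglyceride from glycerol-3-phosphate by adding acyl chains (GPAM, then AGPAT2), removing the phosphate from phosphatidate (the lipins) and adding the last acyl chain to diacylglycerol (DGAT1 and DGAT2). The product is stored in droplets coated by perilipins such as PLIN2 and PLIN5, which CIDEC enlarges by fusion, and PNPLA2 (adipose triglyceride lipase) starts its breakdown. Lipin-1 also acts in the nucleus as a coactivator of fatty acid oxidation genes. Footprints report ribosomes on mRNA, so mRNA amount and ribosomes per mRNA are measured together, and in liver tissue fewer cells of a type and less RNA per cell cannot be told apart.

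Library totals over all transcripts ran from 40593197 to 90458783 counts, with reads shared by isoforms counted once for each. Levels are given as CPM, counts scaled to the size of the library after TMM normalization, for the transcript of each gene with the most reads. Of the 4 clock genes looked at, each of which passed the rhythm test, Arntl had its fitted peak at 23.0 h, Nr1d1 at 8.54 h, Dbp at 11.2 h and Per2 at 16.5 h. The summed CPM of 6 hepatocyte markers ran from 34430 to 48594. It ran from 96.9 to 152 for 5 hepatic stellate cell markers and from 64.8 to 117 for 5 Kupffer cell markers. For 6 adipocyte markers it ran from 1.98 to 6.97, 2 of the 6 having a mean of at least 10 counts, with Adipoq at a mean of 0.0476 and Lep at 0.00474. The summed CPM of 6 pancreatic acinar markers was 2831 in CT20 replicate 2 and between 0.159 and 56.7 in the other libraries. In CT16 replicate 2, for which 2 sequencing runs were deposited, 100.0% of the counts above 0 were even numbers.

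The rhythm question was whether a transcript's level followed a 24-h cosine (edgeR's quasi-likelihood F test over 14 libraries, Benjamini-Hochberg adjusted over the 17299 transcripts whose mean count was 10 or more). All 15 transcripts could be tested, and 6 of the 10 genes passed an adjusted p of 0.05: Lpin1, Lpin2, Agpat2, Pnpla2, Plin2 and Plin5. Over all 11618 genes tested, 11.3% passed. The 10 genes were chosen with earlier results of these data known, so their share against all genes is a description only. A test for any difference among the 7 times (edgeR) was passed by 7 of the 10, the same 6 and Gpam, against 7.05% of all genes. A JTK_CYCLE-type rank test on the same CPM, adjusted over transcripts in the same way, was passed by 2 of the 10, Lpin1 and Lpin2 (adjusted p = 0.0077 for each), and by 3.3% of all genes. The median peak to trough in edgeR's fit was 1.09 on the log2 scale for the 10 genes and 0.44 for all genes tested. The 6 genes did not share a phase. Pnpla2, Lpin2 and Lpin1 peaked around CT10 to CT13, from late subjective day to early subjective night, Plin5 and Agpat2 around CT19 to CT22, and Plin2 around CT2.

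**Figure D1:**
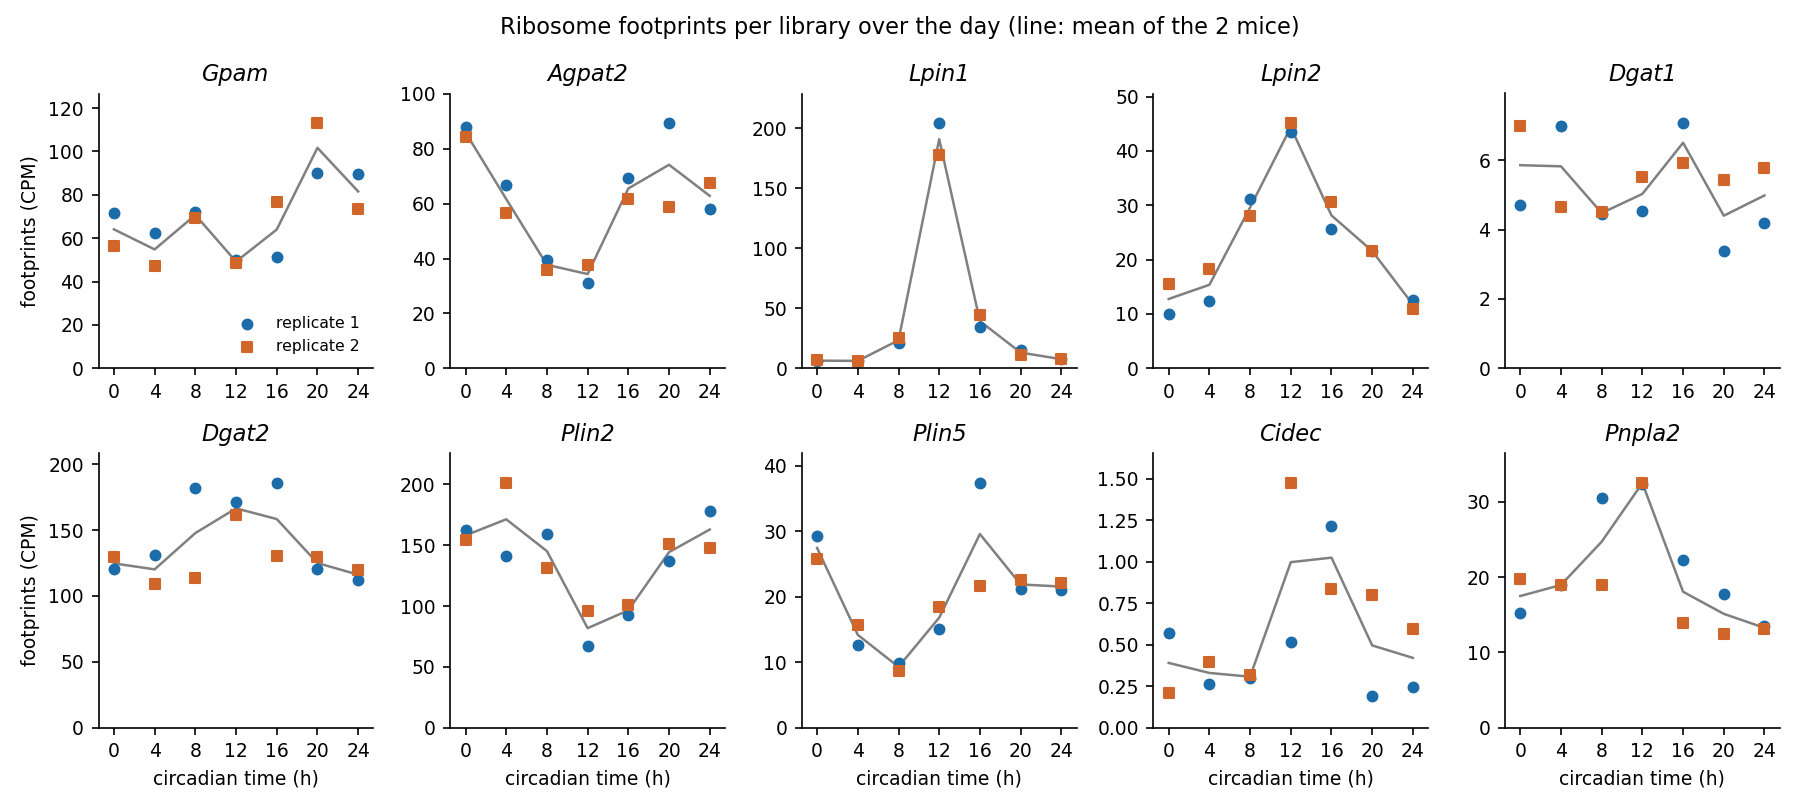
Footprints in CPM (vertical axes, from 0) against circadian time in hours, with a panel for each gene, circles for replicate 1, squares for replicate 2 and a line through the mean of the 2 mice. Lpin1 rose to 205 and 177 CPM at CT12 from about 6 CPM at CT0 and CT4, while Agpat2 and Plin2 had their lowest means at that time.

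Among the acyltransferases at the head of the pathway, Agpat2, which turns lysophosphatidate into phosphatidate, was highest at CT0 and lowest at CT8 and CT12. It stood at 87.8 and 84.1 CPM at CT0, 66.7 and 56.6 at CT4, 39.5 and 35.9 at CT8, 30.9 and 37.8 at CT12, 69.3 and 61.7 at CT16, 89.4 and 58.9 at CT20, and 58.0 and 67.7 at CT24. The 4 libraries of CT8 and CT12 lay below all the others. The fitted peak to trough was 1.15 ± 0.20 on the log2 scale (SE) with a peak at 21.9 ± 0.71 h (adjusted p = 0.00095, edgeR). Fitted alone, the replicate series put the peak 0.39 h apart.

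Gpam, the mitochondrial enzyme that adds the earlier acyl chain, read 71.6 and 56.5 CPM at CT0, 62.3 and 47.3 at CT4, 72.0 and 69.5 at CT8, 49.96 and 48.4 at CT12, 51.2 and 76.8 at CT16, 90.2 and 113 at CT20, and 89.5 and 73.6 at CT24. Both CT20 libraries exceeded every library of another time. The cosine test was not passed (peak to trough 0.59 ± 0.26, adjusted p = 0.18, edgeR), whereas the test for any difference among the 7 times was (adjusted p = 0.033). Without CT20 replicate 2, the library with the acinar reads, the latter adjusted p was 0.13. The call was lost in 8 of 14 such omissions, those of CT0 replicate 2, CT4 replicate 2, both CT8 libraries, both CT12 libraries, CT20 replicate 2 and CT24 replicate 1, with adjusted p from 0.053 to 0.13. Scaling by total counts instead gave an adjusted p of 0.030 for the cosine, with a peak to trough in edgeR's fit of 1.01 against 0.58.

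The lipins carried the widest swing of the set. Lpin1 stood at 6.19 and 6.46 CPM at CT0, 6.40 and 5.90 at CT4, 21.4 and 25.2 at CT8, 205 and 177 at CT12, 34.3 and 44.3 at CT16, 15.4 and 10.8 at CT20, and 7.46 and 7.58 at CT24. The CT12 mean of 191 ± 19 CPM (SD, n = 2) was 31.1 times the CT4 mean of 6.15 ± 0.35. It was 8.18 times the CT8 mean and 4.86 times the CT16 mean. In CPM, most of the rise and fall thus lay in the 4 h on either side of CT12. In folds the fall went on, with the CT16 mean 3.00 times the CT20 mean and the CT20 mean 1.74 times the CT24 mean. The cosine fit, which is broader than this peak, gave a peak to trough of 4.25 ± 0.48 on the log2 scale (SE) at 13.0 ± 0.48 h (adjusted p = 5.7e-07, edgeR). In the 7-time test Lpin1 had the lowest p of all 11618 genes (adjusted p = 3.5e-11). Among 1226 genes that passed the cosine test with a mean of at least 100 counts, its peak to trough in edgeR's fit, 4.49, was the 32nd widest.

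Lpin2, the paralogue with the same phosphatase activity, peaked at the same time with a smaller swing. It stood at 9.98 and 15.5 CPM at CT0, 12.4 and 18.3 at CT4, 31.2 and 28.0 at CT8, 43.5 and 45.1 at CT12, 25.7 and 30.6 at CT16, 21.5 and 21.6 at CT20, and 12.6 and 10.9 at CT24. Both CT12 libraries were above all others. The fitted peak to trough was 1.75 ± 0.18 at 12.6 ± 0.45 h (adjusted p = 5.4e-06, edgeR), and the peak times of the lipins differed by less than their SEs.

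Which lipin had the higher density changed within the day. The density of footprints on the coding sequence (reads per nucleotide) of Lpin1 relative to Lpin2 in the same library was -0.64 and -1.15 on the log2 scale at CT0, -0.86 and -1.52 at CT4, -0.47 and -0.11 at CT8, 2.34 and 2.05 at CT12, 0.51 and 0.57 at CT16, -0.49 and -0.90 at CT20, and -0.71 and -0.41 at CT24. Lpin2 thus held the higher density in the 10 libraries outside CT12 and CT16, and Lpin1 in the other 4. Over the day the mean ratio was -0.13 ± 1.14 (SD, n = 14; two-sided exact sign-flip test, adjusted p = 0.68 over 5 pairs). Its time course had a peak to trough of 2.50 at 13.2 h (permutation test of the cosine with 100000 shuffles, adjusted p = 0.0011). Lpin1 made up 81.5% ± 1.8 (SD, n = 2) of the summed lipin density at CT12 and 28.6% ± 5.9 at CT4, and Lpin3 averaged 2.85% over the libraries.

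**Figure D2:**
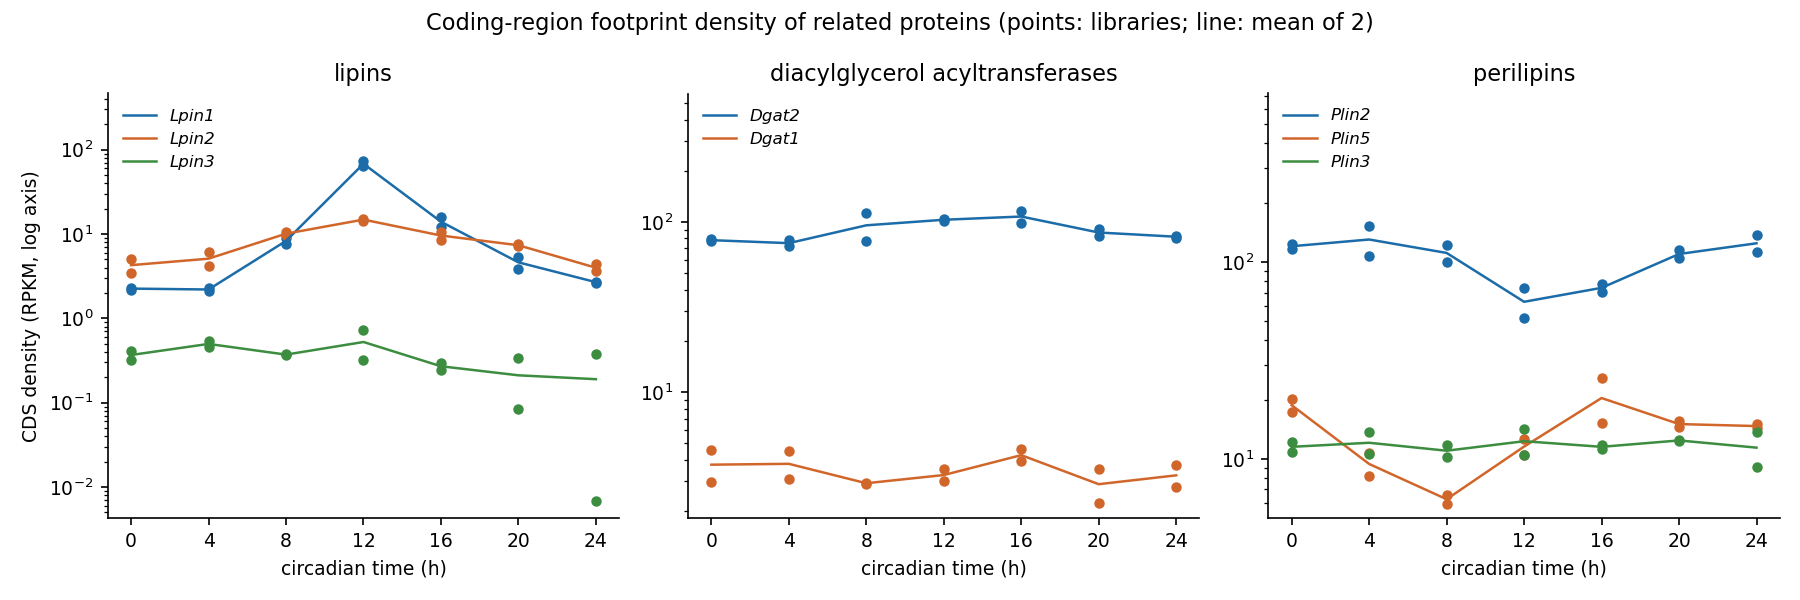
Coding-sequence footprint density (RPKM, TMM-scaled, log axis) against circadian time in hours for lipins, diacylglycerol acyltransferases and perilipins, with a point for each library and a line through the mean of 2. Lpin1 lay below Lpin2 at CT0 and CT4 and above it at CT12 and CT16, while Dgat2 stayed far above Dgat1 and Plin2 above Plin5 in every library.

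The isoforms of both lipins differ in their 5′UTRs and in coding sequence, and these stretches are shown because the reads separate them. The coordinates and sequences are those of RefSeq on GRCm38.p6, the mm10 build that the deposited files use. All 3 Lpin1 transcripts lie on the minus strand of chromosome 12. NM_001130412 has an extra 5′UTR exon of 144 nt at chr12:16584508-16584651, in which an upstream ORF of 6 nt, a start codon followed at once by a stop codon, begins at base 93 of the 5′UTR. NM_015763 has an extra coding exon of 99 nt at chr12:16571164-16571262. The lines give the upstream ORF in capitals at chr12:16584595-16584624, and the coding exon in capitals with 12 bases of each neighbouring exon.
Lpin1 upstream ORF: tgtgtctccagcATGTAAatccctgccagg
Lpin1 coding exon: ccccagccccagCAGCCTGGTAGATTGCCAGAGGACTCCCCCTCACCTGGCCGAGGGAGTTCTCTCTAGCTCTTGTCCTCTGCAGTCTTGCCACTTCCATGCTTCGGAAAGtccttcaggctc

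Footprints fell on both stretches. The extra 5′UTR exon held 693 reads over the 14 libraries, with 276 and 200 of them at CT12 and 1 to 7 in each library of CT0 and CT4. The 63 nt of 5′UTR that all 3 isoforms share held 51, and the other 2 isoforms have no further 5′UTR. Per nucleotide, the extra exon carried 0.36 ± 0.23 (SD, n = 14) of the coding density. The 99-nt coding exon held 1025 reads at 0.79 ± 0.43 of the density of the shared coding sequence, with 464 and 228 at CT12 and none in CT0 replicate 2. All 3 transcripts passed the cosine test, but they share nearly all of their reads and are not separate evidence.

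For Lpin2, on the plus strand of chromosome 17, the isoforms start from different first exons. The 122-nt 5′UTR of NM_001164885, whose first exon is chr17:71204654-71204880, held 913 reads and was covered in all 14 libraries. The 113-nt 5′UTR of NM_022882, whose first exon is chr17:71183978-71184080, held 1 read in all. The former reads from an upstream start codon that adds 114 nt of coding sequence, shown with both start codons in capitals. Its 5′UTR has upstream ORFs of 45 and 12 nt, the shorter of which is shown with its start and stop codons in capitals at chr17:71204742-71204765 and ends 16 nt before the main start codon.
Lpin2 12-nt upstream ORF: agagtcATGcttgagTAGtctctt
Lpin2 amino-terminal extension: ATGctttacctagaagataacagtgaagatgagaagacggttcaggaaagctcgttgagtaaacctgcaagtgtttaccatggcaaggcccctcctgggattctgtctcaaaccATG

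The extension held 1012 reads, between 16 and 257 in a library, at 1.28 ± 0.48 (SD, n = 14) of the density of the shared coding sequence. The 5′UTR before it was read at 1.03 ± 0.48 of that density. The footprints on the 5′ end of Lpin2 therefore lay, but for 1 read, on the long isoform in every library.

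**Figure D3:**
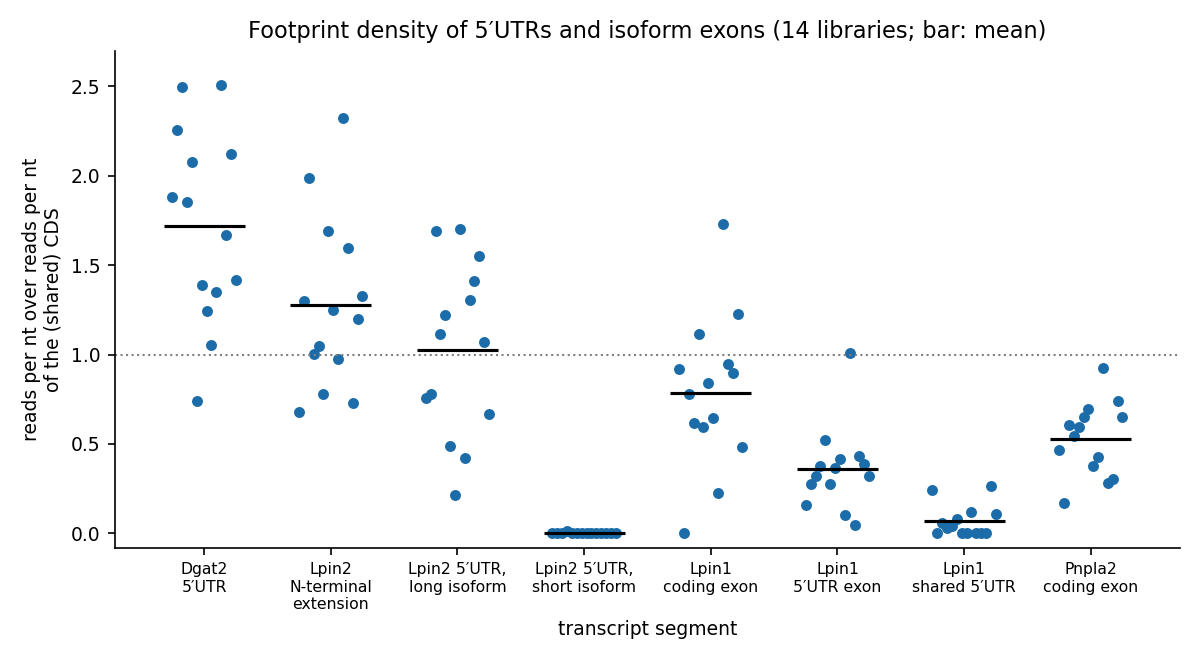
Footprint density of 5′UTRs and isoform exons as a ratio to the coding sequence of the same gene (vertical axis, reads per nt over reads per nt), with a point for each of the 14 libraries and a bar at the mean. The Dgat2 5′UTR averaged 1.72 and the Lpin2 extension 1.28, while the 5′UTR of the short Lpin2 isoform lay at 0 in all libraries but 1.

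The enzymes of the last step differed in level far more than over time. Dgat2, the main enzyme for newly made fatty acids in liver, had a coding density 26.3 times that of Dgat1 (log2 ratio 4.72 ± 0.35, SD, n = 14), with the ratio above 0 in 14 of 14 libraries (two-sided exact sign-flip test, adjusted p = 0.00015, the smallest this test can give over 5 pairs with 4 tied). The time course of the ratio did not pass (peak to trough 0.45, permutation adjusted p = 0.22).

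Dgat2 read 120.2 and 129 CPM at CT0, 131 and 109 at CT4, 182 and 114 at CT8, 171 and 162 at CT12, 186 and 131 at CT16, 121 and 129 at CT20, and 112 and 120.0 at CT24. The mice of CT8 and of CT16 differed by more than the time means did. The cosine fit gave 0.49 ± 0.15 at 12.8 ± 1.3 h with an adjusted p of 0.051 (edgeR), on the border of the threshold. Coding reads alone gave 0.034 and total-count scaling 0.67. Dgat1 lay between 3.37 and 7.08 CPM in all libraries, the highest and lowest time means being 1.48-fold apart, and its fitted peak to trough was 0.07 ± 0.28 (adjusted p = 0.96).

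Dgat2 also had the most 5′UTR footprints of the set. Of its 5′UTR and coding reads together, 23.6% lay in the 201-nt 5′UTR, against a median of 3.88% over the 16838 transcripts that have a 5′UTR and at least 140 coding reads in all, and 90.7% of these had a lower share. The share was 11.2% in CT16 replicate 2, 15.2% in CT24 replicate 1 and 30.0% in CT4 replicate 1. CT16 replicate 2 also had the lowest 5′UTR share of all libraries over all transcripts, 5.72%. That 5′UTR, on the minus strand of chromosome 7, has a 45-nt upstream ORF starting at base 140 and ending 17 nt before the main start codon. Its start codon is in capitals in the line, at chr7:99182557-99182586.
Dgat2 upstream ORF start: ggcggccggggcATGggtcaggggcgcggc

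The counts are per region, so reads in the upstream ORF itself were not separated from the rest of the 5′UTR. A 60-nt upstream ORF in the 207-nt 5′UTR of Agpat2 stood beside 38 5′UTR reads over all libraries, 0.078% of its 5′UTR and coding reads.

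The droplet coat genes were both rhythmic, with peaks several hours apart. Plin2, the general perilipin of liver droplets, stood at 162 and 154 CPM at CT0, 141 and 202 at CT4, 159 and 131 at CT8, 67.6 and 96.2 at CT12, 92.6 and 101 at CT16, 137 and 151 at CT20, and 178 and 148 at CT24. The 4 libraries of CT12 and CT16 were the lowest. The fitted peak to trough was 0.98 ± 0.18 at 1.89 ± 0.74 h (adjusted p = 0.0018, edgeR). The adipocyte marker sum was also lowest at CT12, at 2.41 and 1.98 CPM, and most of that sum was Fabp4, with a mean of 3.25 CPM over the libraries. The sum for hepatic stellate cells, which store retinoid in lipid droplets, was lowest at CT16, at 107 and 96.9 CPM, and stood at 136 and 118 at CT12 and 152 and 141 at CT0. The part of either in the Plin2 result was not tested.

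Plin5, which tethers droplets to mitochondria in oxidative tissues, stood at 29.2 and 25.7 CPM at CT0, 12.7 and 15.7 at CT4, 9.92 and 8.70 at CT8, 15.1 and 18.5 at CT12, 37.4 and 21.7 at CT16, 21.1 and 22.6 at CT20, and 21.1 and 22.1 at CT24. Both CT8 libraries were below every other library, and CT16 replicate 1 was the highest. The fitted peak to trough was 1.40 ± 0.28 at 19.5 ± 0.69 h (adjusted p = 0.0024, edgeR). Without CT16 replicate 2, whose counts were all even, the adjusted p was 0.0032 (edgeR).

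Plin2 had the higher coding density in 14 of 14 libraries, 7.91 times that of Plin5 on average. The log2 ratio of Plin2 over Plin5 was 2.62 and 2.75 at CT0, 3.72 and 3.84 at CT4, 4.22 and 4.08 at CT8, 2.30 and 2.55 at CT12, 1.46 and 2.35 at CT16, 2.85 and 2.89 at CT20, and 3.25 and 2.90 at CT24. Its time course had a peak to trough of 1.85 at 5.31 h (permutation adjusted p = 0.0047 over 5 pairs). Plin5 accounted for 4.87% ± 0.28 (SD, n = 2) of the perilipin density at CT8 and 19.1% ± 6.4 at CT16. Plin3, in the same sum, averaged 9.51%, and Plin1 and Plin4 each averaged under 0.1%.

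Cidec, whose product enlarges droplets in fat cells and steatotic liver, was the rarest of the set with a mean of 33.9 counts. It lay between 0.191 and 1.48 CPM, the mean being highest at CT16 with 1.03 ± 0.27 CPM (SD, n = 2) and 1.00 ± 0.68 at CT12. The fit gave 1.61 ± 0.60 at 15.0 ± 1.4 h with an adjusted p of 0.11 (edgeR). The ratio of Plin2 over Cidec, 157-fold on average, fell from 8.18 and 7.96 on the log2 scale at CT8 to 6.16 and 5.24 at CT12 (peak to trough 2.53, permutation adjusted p = 0.015). Cideb, a relative in the pathway list, had a mean density of 132 RPKM against 0.77 for Cidec.

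**Figure D4:**
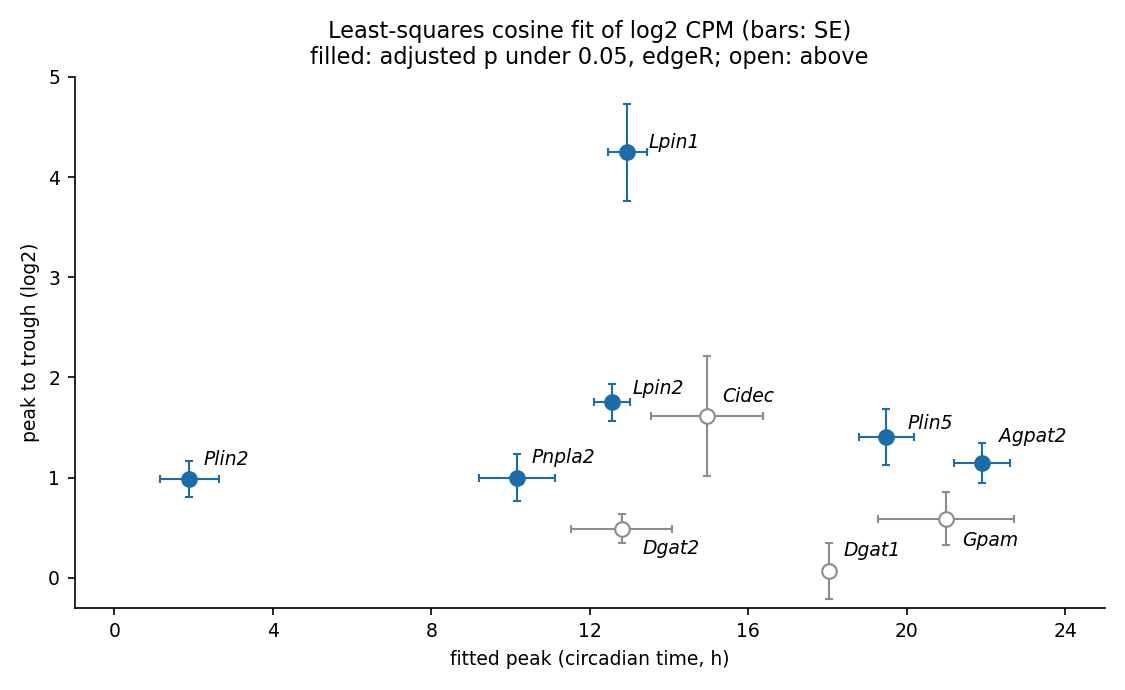
Fitted peak time (horizontal axis, circadian time in hours) against peak to trough of log2 CPM (vertical axis) for the 10 genes, with bars for the SE of the least-squares fit and filled points for genes that passed edgeR's cosine test. Lpin1 stands apart in size at 4.25, Plin2 at 1.89 h lies on the other side of the day, and no horizontal bar is drawn for Dgat1, whose SE of peak time was 13.9 h.

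Pnpla2, the lipase that removes an acyl chain from triglyceride, stood at 15.2 and 19.8 CPM at CT0, 18.9 and 19.02 at CT4, 30.5 and 18.9 at CT8, 32.4 and 32.6 at CT12, 22.3 and 13.9 at CT16, 17.8 and 12.5 at CT20, and 13.5 and 13.1 at CT24. Both CT12 libraries were the highest, CT8 replicate 1 came next, and the mice of CT8 and CT16 differed widely. The fitted peak to trough was 1.00 ± 0.24 at 10.2 ± 0.96 h (adjusted p = 0.0048, edgeR). Of the 6 genes this edgeR call was the one that hung on scaling, since total counts gave an adjusted p of 0.36, with a peak to trough in edgeR's fit of 0.54 against 1.01. Relative to total counts, TMM scaling itself moved all levels by a wave of 0.46 from peak to trough on the log2 scale with its top at 10.4 h, close to the Pnpla2 peak. Within a library, which no scaling touches, the log2 ratio of Pnpla2 over Dgat2 ran from -3.45 to -2.24 and was highest at CT12, with -2.24 and -2.27 (peak to trough 0.78, permutation adjusted p = 0.030). Leaving out each library in turn gave 0.018 to 0.082 for that p, with 5 of 14 above 0.05, namely CT4 replicate 2, both CT12 libraries, CT20 replicate 2 and CT24 replicate 1.

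The alternative coding exon of Pnpla2, 168 nt at chr7:141458592-141458759 in NM_001163689, held 1110 reads at 0.53 ± 0.21 (SD, n = 14) of the density of the shared coding sequence, and reads fell on it in all 14 libraries.

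**Figure D5:**
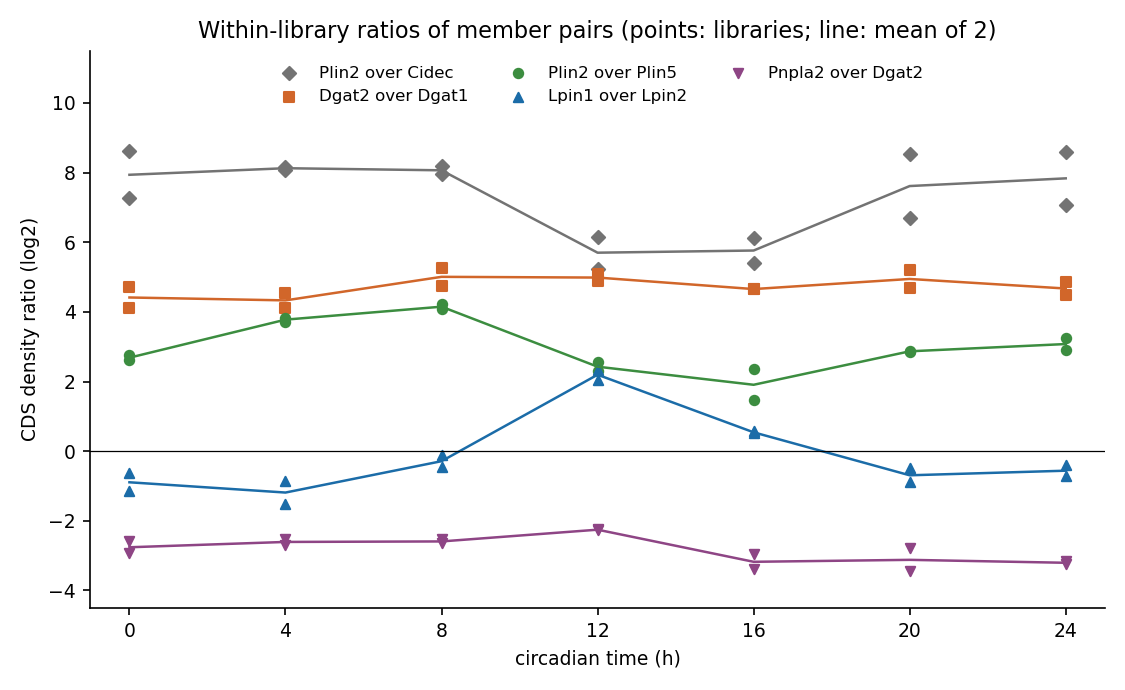
Within-library log2 ratio of coding-sequence density for 5 pairs of genes (vertical axis) against circadian time in hours, with a point for each library and a line through the mean of 2. Lpin1 over Lpin2 crosses 0 on the way to 2.34 and 2.05 at CT12, while Plin2 over Plin5 falls from 4.22 and 4.08 at CT8 to 1.46 and 2.35 at CT16.

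By coding density the order of the set, as means over 14 libraries in RPKM, was Plin2 (105 ± 28, SD), Dgat2 (89.7 ± 14.6), Agpat2 (71.3 ± 22.7), Gpam (27.3 ± 7.4), Lpin1 (14.6 ± 23.1), Plin5 (13.7 ± 5.3), Pnpla2 (13.2 ± 4.6), Lpin2 (7.89 ± 3.83), Dgat1 (3.44 ± 0.74) and Cidec (0.77 ± 0.52). Agpat2 was above Gpam, and Dgat1 above Cidec, in all 14 libraries. Lpin1 exceeded Plin5 in 5 libraries and Plin5 exceeded Pnpla2 in 8, so that the order among these 3 was not fixed. The Lpin1 mean rests on the CT12 pair, at 73.0 and 63.3 RPKM, and Lpin1 exceeded Lpin2 in 4 libraries of the 14. Plin2 exceeded Dgat2 in 10 and Dgat2 exceeded Agpat2 in 10.

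Whether the day closed on itself was read from CT24 against CT0. None of the 10 genes passed (edgeR), nor did any of the 11618 genes tested. Agpat2 was the only gene of the set with an unadjusted p below 0.05, with a CT24 minus CT0 difference of -0.45 on the log2 scale (unadjusted p = 0.032, adjusted p = 0.96), where 5.12% of all genes had such a p. The largest difference upward was 0.35, for Gpam.

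The share of footprints in the 5′UTR relative to the coding sequence was tested for a daily rhythm with limma in the 7640 transcripts whose mean count was 10 or more in both regions. None passed, and 377 of them (4.93%) had an unadjusted p below 0.05. Of the set, 9 transcripts of 7 genes could be tested, and 3 transcripts of 2 genes had an unadjusted p below 0.05, both of Pnpla2 and Plin5 NM_025874 (peak to trough 1.57 at 3.63 h, unadjusted p = 0.012, adjusted p = 0.81). The Pnpla2 transcripts, which share most of their reads, had the lowest p. The 5′UTR share of NM_001163689 was 1.56% and 2.12% at CT0, 6.80% and 2.29% at CT4, 5.16% and 3.60% at CT8, 2.13% and 1.99% at CT12, 1.17% and 0.287% at CT16, 1.21% and 1.22% at CT20, and 0.915% and 1.75% at CT24. The values of CT4 and CT8 were above all the others, and the fitted log2 ratio had a peak to trough of 2.58 at 6.16 h (unadjusted p = 0.0015, adjusted p = 0.81, limma). None of the 3 passed the adjusted threshold.

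Of 30 other genes of triglyceride handling, a list chosen with earlier results of these data known, 26 could be tested and 5 passed the cosine test, against 11.3% of all genes. They were Gpat4, a glycerol-3-phosphate acyltransferase (peak to trough 0.64 at 16.2 h, adjusted p = 0.015), Mgll, which splits monoacylglycerol (0.86 at 16.2 h, 0.0037), G0s2, an inhibitor of PNPLA2 (2.19 at 19.6 h, 0.019), Ces1d, a carboxylesterase that acts on stored triglyceride (1.30 at 20.0 h, 8.3e-06), and Tm6sf2, which acts in lipoprotein export (0.69 at 20.1 h, 0.016). G0s2 means ran from 6.67 CPM at CT8 to 54.4 CPM at CT16. None of the 6 genes of droplet assembly passed, nor did the 2 other perilipins or Cideb, which could be tested.

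Of 16 genes listed as regulators with links to lipid genes, all could be tested and 8 passed the cosine test, against 11.3% of all genes. This list, too, was chosen with earlier results of these data known. Ppara, Ppargc1a, Ppargc1b and Foxo1, regulators of fat oxidation and fasting metabolism, had fitted peaks from 8.81 to 12.0 h, Cebpb at 13.2 h and the clock repressor Nr1d1 at 8.54 h. These 6 fell between CT6 and CT18, as did 52.9% of the 1310 genes of all kinds that passed. Ppard peaked at 22.8 h and Insig2, which holds SREBP in the endoplasmic reticulum, at 1.40 h. Srebf1, Pparg, Creb3l3, Nr1h3, Nr1h2, Mlxipl, Cebpa and Nr3c1 did not pass.

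The genes whose course over the 14 libraries was most like that of Lpin1 among 8144 candidates were Narf (Pearson r = 0.96), Pfkfb3 (0.96), Coq10b (0.96), Upp2 (0.93) and Dync1li1 (0.93). All 5 had their highest mean at CT12, with fitted peaks from 12.4 to 12.8 h. Their swings in edgeR's fit were smaller than that of Lpin1, from 0.41 for Dync1li1, which did not pass the cosine test, to 2.93 for Pfkfb3. These correlations describe libraries that share their time labels.

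RefSeq promoter windows, from 250 bases before to 50 after a start, were at hand for 8 of the 10 genes in 13 windows. An E-box (CACGTG, the same on both strands) lay in 1 window of Lpin2, at a start other than those of its transcripts here, and in 1 of Plin2, against 7.15% of all 32851 windows. D-boxes (TTATGTAA or TTACGTAA, both strands) were in none of the 13 and in 1.06% of all. The window listed for Lpin1 belongs to a start upstream of its 3 transcripts.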

How the data were processed

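Reads were clipped, cleared of rRNA with Bowtie2 2.1.0.0 and mapped to mm10 by the authors, who kept exact matches with SAMtools 0.1.19.0 and placed each footprint by its A site. The deposited counts are raw whole-number reads per 5′UTR, CDS and 3′UTR of each RefSeq transcript, not normalized. Reads common to isoforms appear in each of them, as equal coding counts of isoforms with the same coding sequence showed.

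The 3 regions were summed, transcripts averaging 10 counts or more kept, and edgeR 4.0.16 (TMM, quasi-likelihood) fitted with cosine and sine of a 24-h period, or with the 7 times as groups, which gave CT24 against CT0. The log2 5′UTR to CDS ratio (pseudocount 0.5) was fitted with limma 3.58.1. Sizes and peak times printed with an SE are from least squares on log2 CPM, and those of other genes, of medians, ranks and other scalings from the edgeR fit. Densities use the lengths given in the files, in which the coding lengths of the 10 genes are slightly above those of the RefSeq models. Pair ratios used CDS reads per nucleotide (pseudocount 0.5), exact sign-flip tests and 100000 shuffles of time labels, adjusted over the 5 pairs. Named were the 10 genes, every gene of the 2 lists past the cosine threshold and the 5 genes most like the member with the lowest p (mean of at least 100 counts). Other genes of the lists and families, such as Lpin3, Plin3, Cideb and the regulators that did not pass, were named after their values were seen. One acinar marker of the 7, Amy2a5, was not matched. Scripts were tested on simulated data. The members and lists were chosen with earlier results of these data known. By the paper, the 2 replicates of a time are separate mice. The sample titles set replicate 1 in a series A and replicate 2 in a series B, without saying what a series shares. The p-values of the 7-time test and of CT24 against CT0 rest on the spread between the 2 mice of a time. In the cosine fits the spread also holds the departure of the time means from a cosine, and the pair tests use the spread over all libraries. Alternatives included DESeq2 1.42.0 and a rank test written from the definition of JTK_CYCLE, the test the methods name. It was run on the summed regions in CPM, not on the RPKM of well-translated transcripts that the methods used. Its p was adjusted over lags only, or, as settings added after seeing the data, also over transcripts. The 5′UTR models of Dgat1, Gpam and Cidec differ in length between the files and GRCm38.p6, and no upstream ORFs are given for them.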

Additional observations from a re-analysis of the deposited data

How the results depend on the processing

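The 6 genes with a daily rhythm were between 6 and 8 under the 13 planned settings and between 6 and 7 when each library was left out in turn, and Lpin1, Lpin2, Agpat2, Plin2 and Plin5 passed under all of these. Over all genes 1710 passed in the DESeq2 likelihood ratio test, where the 8 were called, 968 with total counts and between 1005 and 1391 without single libraries, against 1310. They were fewer by the JTK_CYCLE-type rank test adjusted over transcripts, a setting chosen after seeing the data: 2 with TMM (Lpin1 and Lpin2, with 0.073 for Plin2, 0.11 for Plin5, 0.13 for Agpat2 and 0.17 for Pnpla2) and 3 with total counts, where Plin2 passed too (0.034). With its p adjusted over lags only, which is not comparable with the adjusted p of edgeR, that test gave 6 genes on either scale. These runs are among the 13 planned settings above. Pnpla2 was lost with total-count scaling in edgeR (adjusted p = 0.36) and in the rank test, and Gpam was gained in edgeR (0.030) and in the rank test adjusted over lags only. Dgat2 passed under 5 settings, among them coding reads alone (0.034) and the DESeq2 likelihood ratio test (0.014), and without CT8 replicate 2 (0.017) or CT16 replicate 2 (0.034). Cidec passed by DESeq2 (0.039) and without CT20 replicate 1 (0.042). Of all genes, 383 passed by the rank test with TMM and 167 with total counts, both adjusted over transcripts, and 1933 and 2009 adjusted over lags only. In the 7-time test, 7 of the 10 genes passed, between 5 and 7 without single libraries, with Gpam and Pnpla2 the ones lost (Pnpla2 without either CT12 or either CT24 library, adjusted p from 0.061 to 0.090). With total counts 6 of the 10 passed it, Pnpla2 being lost (0.21), while over all genes 1519 passed against 819. CT24 against CT0 gave 0 of the 10 genes under every setting run, while over all genes 6 passed with the replicate block. Halving the counts of CT16 replicate 2 and leaving out the CT24 pair each kept the same 6 genes. The pair ratios gave 4 of 5 pairs for level under every setting and 3 or 4 for rhythm.

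Equal replicate numbers were not seen to pair the libraries, since the correlation of same-numbered deviations ran from -0.063 to 0.16 over 21 pairs of times, with 3 above 0.1. With the replicate block, 7 of the 10 genes passed the cosine test, Dgat2 being added (adjusted p = 0.045) and no gene of the set lost, and 1282 of all genes passed. Cidec, with the fewest reads of the set, had the widest SE of its peak to trough.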
